A study of Rattus norvegicus with 10 samples.

Results

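Expression of the voltage-gated sodium channel genes was examined in cultured neurons of the rat cortex that were exposed to inhibitors of histone deacetylases (HDACs), which take acetyl groups off histones. The group was set as 8 genes by name: the alpha subunit genes Scn1a, Scn2a, Scn3a, Scn8a and Scn9a, and the beta subunit genes Scn2b, Scn3b and Scn4b. The expression table lists 32883 genes by Ensembl identifier alone, and names came only from the rows that could be read here of the study's lists of differentially expressed genes. These rows held upregulated genes and gave 1911 identifiers a symbol. Of the 8 genes, 1 could be paired with a row: Scn4b (ENSRNOG00000026679). The other 7 (Scn1a, Scn2a, Scn3a, Scn8a, Scn9a, Scn2b and Scn3b) were not analysed here, so that the values below describe Scn4b and not the family. Scn4b was readable in the list for the inhibitor trichostatin A (TSA), so its rise with TSA is what made it nameable and is given as a description, without a test. It was not read from the list for the second inhibitor, sodium butyrate (NaB), and its change with NaB was tested.

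The cultures came from the cortex of newborn Wistar rats and were grown for 14 days before the drugs were added. Bulk RNA sequencing covered 10 libraries in 4 groups: 3 of cultures kept with 100 nM TSA for 19 h, 3 of the control cultures for TSA, 2 of cultures kept with NaB for 24 h and 2 of the control cultures for NaB. The labels give the NaB dose as 5 µM, whereas the study's methods give the same figure in mM. The NaB libraries belonged to a separate project with controls of its own, so that drug, hours and project changed together and cannot be told apart. No genetic change or other agent is named for any group, and the study describes the cultures as mixed neurons and glia. The libraries held from 26070908 to 27649249 reads assigned to genes, and 3 reads of a gene corresponded to 0.109 to 0.115 CPM, the reads of a gene scaled by the library total. This limit takes in counting error alone. Replicates within groups lay further apart than counting alone would put them (chi-square per degree of freedom from 6.50 to 24.4 over the 8 pairs), so that no library was taken for a repeat of another. In such bulk libraries, fewer cells of a type and less RNA per cell cannot be told apart.

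Voltage-gated sodium channels open when the membrane depolarizes and carry the rising phase of the action potential. The pore is formed by a single large alpha subunit, and smaller beta subunits, which cross the membrane once and carry an immunoglobulin-like domain outside the cell, change its gating and its place in the membrane. In neurons the alpha subunits are concentrated at the axon initial segment and at the nodes of Ranvier. The Scn4b protein is linked to the alpha subunit by a disulfide bond and is best known for its part in the resurgent sodium current of neurons that fire at high rates, such as Purkinje cells of the cerebellum. Many neuronal genes, sodium channel genes among them, are repressed outside neurons by REST, a DNA-binding repressor that recruits HDACs.

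The promoter of the measured gene is shown because inhibitors of HDACs act on chromatin and because its base composition differs from that of most other windows. The sequence is that of RefSeq for the rat build GRCr8, not the build Rnor_6.0 to which the reads were mapped. It covers the 250 bases before the annotated start of Scn4b on chromosome 8, at chr8:54343623-54343872 on the plus strand. Capitals mark the matches to CANNTG, the E-box core bound by basic helix-loop-helix factors.
Scn4b promoter: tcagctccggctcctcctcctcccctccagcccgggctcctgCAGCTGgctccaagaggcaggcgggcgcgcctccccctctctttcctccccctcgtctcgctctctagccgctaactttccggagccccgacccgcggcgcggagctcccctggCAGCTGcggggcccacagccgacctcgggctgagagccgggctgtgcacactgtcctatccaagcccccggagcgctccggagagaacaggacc
The 2 matches lie at bases -208 to -203 and -94 to -89 before the start, and both read CAGCTG.

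In the window of 300 bases that includes the first 50 bases after the start, Scn4b had a GC content of 70.0% and 24 CpG dinucleotides. Over all 33469 rat promoter windows of this length, the median was 51.67% GC and 7 CpG, and 91.73% of the windows had a lower GC content than that of Scn4b. Of the 8 genes, 6 had a window in the table. The Scn8a window was the richest of the 6, with 84.67% GC and 60 CpG, and held 7 copies of GGGCGG, the core of the GC box. The Scn9a window had 56.0% GC and 9 CpG, and the Scn3a window 43.33% and 7 CpG. The windows of Scn2a and Scn2b were the poorest, with 39.33% and 39.0% GC and 4 and 2 CpG. The group thus spanned the range from GC-poor to GC-rich promoters, and Scn4b lay between Scn9a and Scn8a. On both strands, CANNTG occurred in 72.1% of all windows. The Scn4b window held none of the other motifs searched on both strands, which were the parts TCAGCACC (in 1.482% of all windows) and GGACAGC (6.585%) of the site of REST, GGGCGG (33.06%), CCAAT (37.49%), TATAAA (14.22%) and TGACGTCA, the cyclic AMP response element (1.829%). The search covered promoter windows only, and binding was not measured.

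Scn4b was at its lowest in the control cultures for TSA and was present at several times that level in the other 3 groups. Values are normalized counts, in which reads are divided by the size factor of their library. In the control cultures for TSA, Scn4b had 37.98, 44.29 and 33.06 normalized counts, from 36, 43 and 31 reads. With TSA it had 130.4, 113.1 and 126.3, from 139, 125 and 130 reads. All 3 TSA-treated libraries thus lay above all 3 of their controls, with no overlap. The control cultures for NaB had 169.8 and 181.7 normalized counts, from 164 and 174 reads. With NaB, Scn4b had 166.3 and 154.3, from 176 and 160 reads. Both NaB-treated libraries lay just below both of their controls, and both control libraries for NaB lay above every TSA-treated library.

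The group means of Scn4b were 38.44 ± 5.628 normalized counts (SD, n = 3) in the controls for TSA and 123.2 ± 9.035 (SD, n = 3) with TSA. They were 175.7 ± 8.4 (SD, n = 2) in the controls for NaB and 160.3 ± 8.537 (SD, n = 2) with NaB. The order from lowest to highest was therefore control for TSA, TSA, NaB and control for NaB, and no neighbours in this order overlapped. The gap between the last pair, however, was within the error of the test given below. In CPM the libraries had 1.327, 1.595 and 1.121 in the controls for TSA and 5.152, 4.528 and 4.986 with TSA. The controls for NaB had 6.131 and 6.468 CPM, and the NaB-treated libraries had 6.417 and 5.96. On this scale the NaB-treated libraries no longer lay apart from their controls, since 1 of them fell between both control values. Levels of different genes are not compared, as gene lengths were not used.

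**Figure D1:**
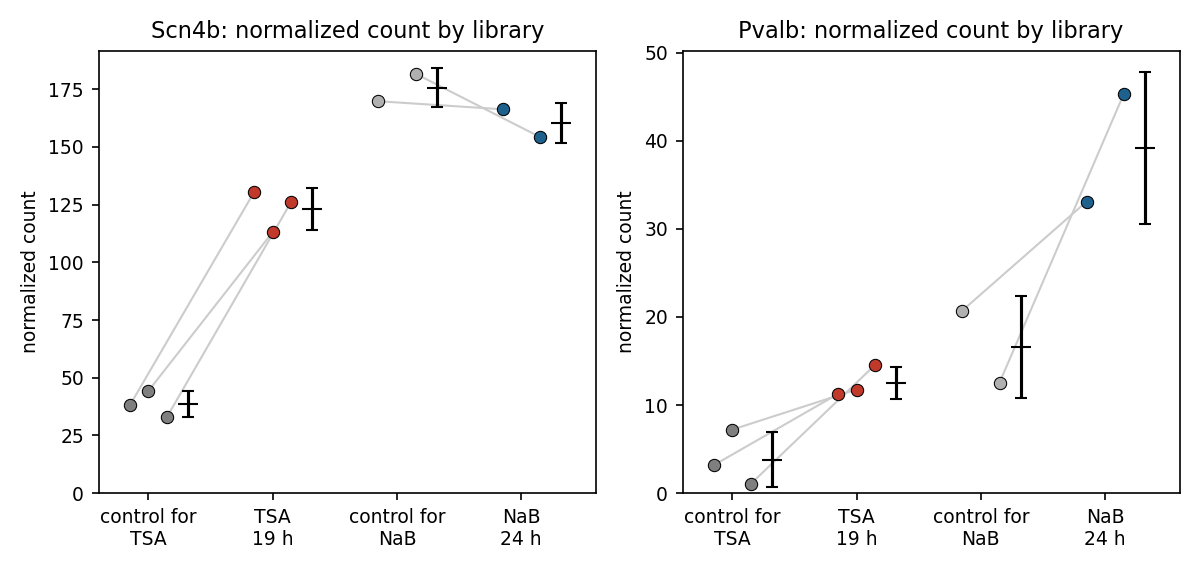
Normalized count (linear axis from 0) of Scn4b on the left and Pvalb, a marker of fast-spiking interneurons, on the right in each of the 10 libraries, by group. Points are libraries, grey lines join the control and treated culture of an inferred plate pair, and black bars show the mean and SD. Scn4b rises from 38.44 to 123.2 with TSA while its controls for NaB already stand at 175.7. Pvalb, with 1 to 47 reads per library, is also lowest in the controls for TSA and is highest with NaB. It does not stand for the other interneuron markers, which were not analysed here.

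With TSA, the mean of Scn4b was 3.206 times that of its controls. On the log2(normalized count + 1) scale of the limma fit, the change was 1.66 (SE 0.16, 95% interval 1.31 to 2.01). By the study's methods, control and treated cultures shared a plate, but the labels do not state which. Plate pairs were inferred from replicate numbers for TSA and from library names for NaB. Within the inferred plate pairs for TSA, the log2 ratios were 1.75, 1.33 and 1.90, all upward. Of the 15717 genes that passed the filter on low counts, 22.5% were called higher with TSA and 19.7% lower, with a call set at an adjusted p under 0.05 and a log2 fold change of 0.5 or more in size. Scn4b ranked 1214 when log2 fold changes were ordered from the highest to the lowest. Nothing is read from this count, since Scn4b was named through the same contrast.

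With NaB, Scn4b showed no change that passed the test. Its mean was 0.9122 times that of the controls, with a log2 fold change of -0.13 (SE 0.19, 95% interval -0.56 to 0.29) and an adjusted p of 0.588 in limma with Benjamini-Hochberg adjustment. The interval leaves room for a small fall or a small rise. The plate pairs gave log2 ratios of -0.0295 and -0.23. Among all tested genes, 41.5% were called in either direction with NaB (21.2% higher and 20.3% lower), and Scn4b was not among them.

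**Figure D2:**
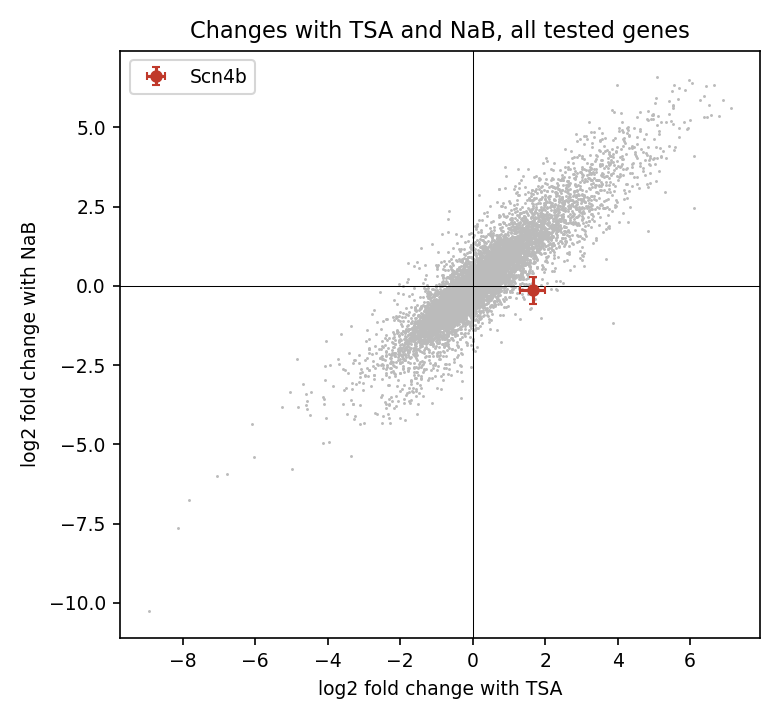
Log2 fold change with TSA (x axis) and with NaB (y axis) for the 15717 tested genes in grey, with Scn4b and its 95% intervals. Most genes lie along the diagonal, and Scn4b lies at the lower edge of the cloud at 1.66 and -0.13.

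The changes of Scn4b with the 2 drugs are set side by side as a description. The change with NaB minus that with TSA was -1.79 on the log2 scale (SE 0.25, 95% interval -2.34 to -1.24). No p is given, since Scn4b was named from its rise with TSA and the TSA libraries are an arm of this difference. Of the tested genes, 0.274% (43 genes) were called lower with NaB than with TSA, 0.0255% (4 genes) higher, and 0.299% (47 genes) in either direction. With the plate pair as a replicate block, the count in either direction was 404, and without 1 library of the TSA experiment it was 14 to 45. Nothing is read from these shares about Scn4b. On leaving out each library in turn, the difference stayed between -1.90 and -1.69. It rested on which controls were used: with all 5 control libraries as 1 group, it turned to 0.38, with an interval from -1.10 to 1.86.

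**Figure D3:**
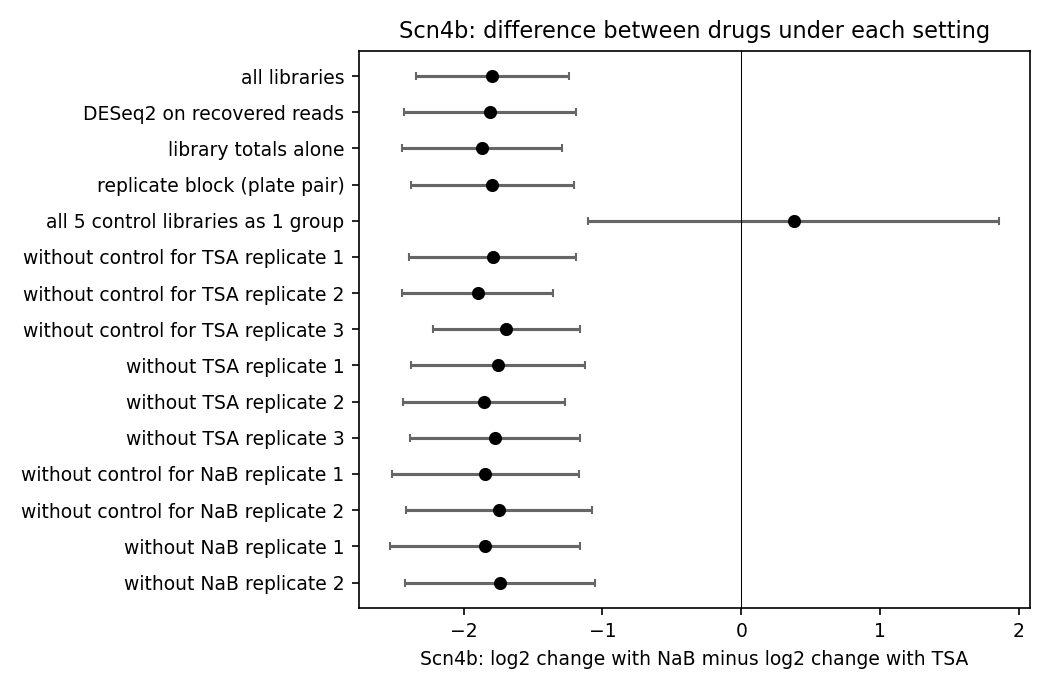
Log2 change of Scn4b with NaB minus that with TSA (x axis) under the main fit, 4 other settings and each library left out in turn. Points are estimates and lines are 95% intervals. Each estimate lies between -1.90 and -1.69 except that with pooled controls, at 0.38.

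The control cultures themselves stood apart in Scn4b. The controls for NaB had 4.571 times the mean of the controls for TSA, a log2 difference of 2.17 (SE 0.18, 95% interval 1.78 to 2.56). This too is a description, since the controls for TSA were low by the contrast through which the gene was named. Across all tested genes, 0.986% were called higher in the controls for NaB, 0.56% lower and 1.55% in either direction, and Scn4b held rank 33 of 15717 when differences were ordered from the highest to the lowest. These shares were unstable. The 243 genes called in either direction became 583 with DESeq2 and 6 with only these libraries in the fit. Without 1 of the controls for TSA they became 71 to 461. The counting intervals of the reads did not overlap, but they leave out the spread between cultures. Nothing is read from them about a difference between the control groups. The controls for TSA had 95% Poisson intervals from 21.06 to 57.92 reads, and those for NaB from 139.9 to 201.9. The mean of the TSA-treated libraries was 0.7013 times that of the controls for NaB, so that the cultures in which Scn4b had risen still held less of it than the untreated cultures of the other project. Between the treated groups, the NaB mean was 1.301 times the TSA mean.

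Genes that work with the channel could not be followed. None of 4 further subunit genes (Scn4a, Scn7a, Scn10a and Scn11a), the 10 partners at the initial segment and node, the 4 FGF homologous factors that bind the tail of the alpha subunit, the 12 genes of channel processing and trafficking or the 8 genes of REST and its HDAC partners could be paired with a row, and they were not analysed here. The same holds for all 11 pan-neuronal, 6 excitatory, 8 astrocyte and 10 oligodendrocyte lineage markers, so that the labelled cell type could not be checked against its own defining markers.

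Markers of other cell types could be read where they were among the upregulated genes, and such markers were bound to be higher with a drug. Of 8 interneuron markers, 1 was paired: Pvalb, the calcium-binding protein parvalbumin of fast-spiking interneurons. The other 7 were not analysed here, and Pvalb, named from the rows of upregulated genes, does not stand for them. Of the paired markers, Pvalb had the largest difference between control groups in the direction of Scn4b. Pvalb had 3.165, 7.21 and 1.067 normalized counts in the controls for TSA, 11.25, 11.76 and 14.57 with TSA, 20.71 and 12.53 in the NaB controls, and 33.08 and 45.31 after NaB. These rest on 1 to 47 reads. The log2 difference between the control groups was 2.05 (SE 0.52), rank 42 of 15717 in the same order from the highest, given as a description because Pvalb too was named through the TSA list. With NaB its change was 1.21 (SE 0.57), which did not pass the test (adjusted p = 0.0984, limma). The part of such cells in the levels of Scn4b was not tested.

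Of 7 sensory neuron markers, 4 were paired (Prph, Calca, P2rx3 and Pou4f1), each through the TSA list, so that their rise with TSA was given by the choice. Calca and Pou4f1 were also in the NaB list. The other 2 were called higher with NaB. Prph, an intermediate filament protein, had a log2 fold change of 1.95 (SE 0.35, adjusted p = 9.47e-04, limma). P2rx3, an ATP-gated channel, had 1.41 (SE 0.26, adjusted p = 0.00116, limma). Over all tested genes, 21.2% were called higher with NaB. Of the 3540 genes called higher with TSA, 860 (24.29%) had no call with NaB. Since these markers were named through the TSA list, nothing is read from their calls about sensory neurons. Pou4f1, a transcription factor of sensory neurons, went from 2.436 ± 1.555 to 170.2 ± 42.46 normalized counts with TSA (SD, n = 3) and from 6.242 ± 1.508 to 225.5 ± 34.23 with NaB (SD, n = 2). Between the control groups, the log2 differences of the 4 ranged from -0.18 for Calca, the precursor of calcitonin gene-related peptide, to 1.16 for Pou4f1, beside 2.17 for Scn4b. The 2 paired muscle markers of 5 were Actn2, an actin cross-linker of the Z disc, and Ckm, muscle creatine kinase. Both were named through the TSA list, and Ckm through the NaB list as well. Actn2 was called higher with NaB (log2 fold change 1.53, SE 0.19, adjusted p = 1.04e-04, limma). Beside the shares given above, nothing is read from this call about muscle cells. Actn2 went from 659.4 ± 92.41 to 1366 ± 212.2 with TSA and from 496.6 ± 125.0 to 1408 ± 9.155 with NaB. Whether such cells had a part in the levels of Scn4b was not tested.

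Of 7 microglial markers, Tmem119 was paired, with 1 to 16 reads per library. It was named through the NaB list, and it changed by 2.51 (log2, SE 0.65) with that drug. With TSA it was 0.48 (SE 0.53, adjusted p = 0.459, limma), which did not pass the test. Its change with NaB minus that with TSA was 2.03 (SE 0.84), a description, since the NaB libraries named the gene. Of 4 endothelial and mesenchymal markers, Col1a1, a fibrillar collagen chain, was paired, through the NaB list. Its high values with NaB were favoured by that choice, and its change with NaB was not called here. Col1a1 set the control libraries for TSA apart from each other. Replicate 2 of these had 47.38 normalized counts, whereas replicates 1 and 3 had 909.3 and 1379. The controls for NaB had 149.1 and 136.8, the TSA-treated libraries from 695.6 to 879.3 and the NaB-treated libraries 876.1 and 961.2. Replicate 2 was also the control for TSA with the highest Scn4b, at 44.29, but this is far below the 113.1 of the lowest library of any other group. Without it, the difference of Scn4b between drugs was -1.90.

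The gene most like Scn4b over the 10 libraries, among the 1829 tested genes with a symbol, was Glb1l2, a relative of beta-galactosidase (Pearson r = 0.96 on log2 values). Glb1l2 had 28.48, 59.74 and 21.33 normalized counts in the controls for TSA and 116.3, 102.2 and 100.1 with TSA. Its level was 149.1 and 134.7 in the untreated libraries of the NaB project and 144.6 and 157.1 in the treated ones. The low level in the controls for TSA alone was shared with Scn4b, as the choice by correlation favours. Its log2 fold change was 1.65 in the TSA experiment and 0.0886 in the NaB experiment.

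The next 4 genes, chosen after their values were seen, had the same order of the control groups. Choice by likeness to Scn4b over these libraries favours that order, so nothing is read from it. The r of these 4 genes ranged from 0.94 to 0.96. They were Tmprss7, a membrane serine protease, Sntb2, a syntrophin that binds dystrophin, Sned1, a matrix protein, and Ttc21a, a protein of cilia. Group means for Sned1 were 21.37 normalized counts in the controls for TSA, 45.98 with TSA, 91.55 in the NaB controls and 81.2 after NaB. For Ttc21a they were 43.39, 99.25, 87.83 and 109.8 in the same order, so that its NaB-treated mean was the highest. The names available were those of upregulated genes, which limits what could be found to be alike.

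**Figure D4:**
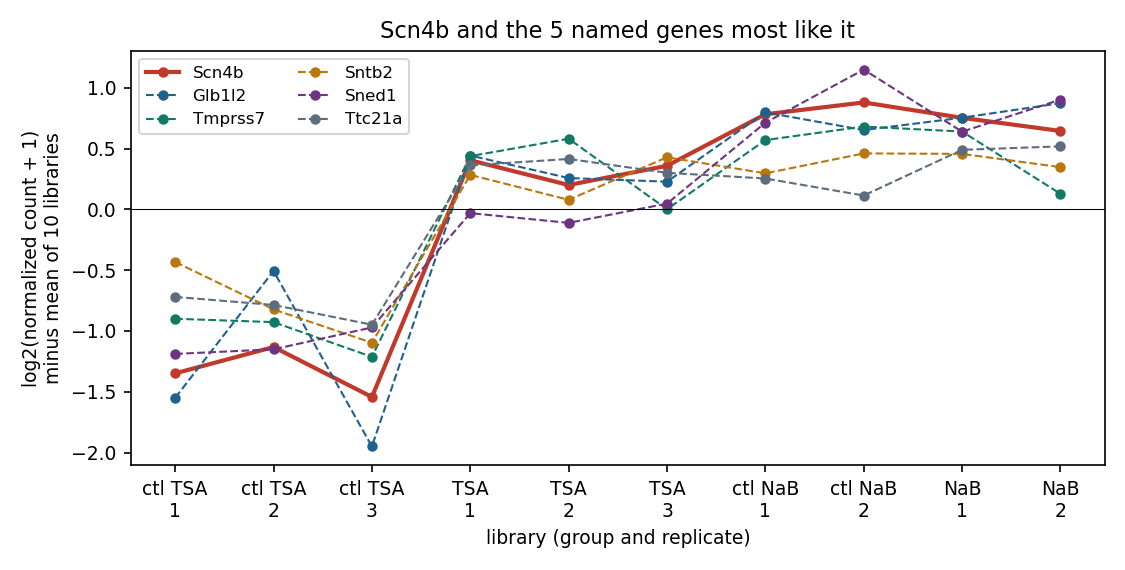
Log2(normalized count + 1) minus the gene's mean over the 10 libraries (y axis) for Scn4b, in the thick line, and the 5 named genes most like it, by library (x axis). Lines only join the points of a gene. All 6 genes lie below their mean in the 3 controls for TSA and most of their other values lie above it.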

How the data were processed

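The authors mapped paired-end reads of poly(A) RNA to Rnor_6.0 with STAR 2.7.9a, counted them per gene with featureCounts 2.0.1 and scaled the counts with the median-of-ratios size factors of DESeq2 1.29. The deposited signal is the read count divided by a size factor per library. Dividing by the smallest value above 0 in each library gave whole reads for 100% of values (tolerance 0.01). The strand setting is not given in the sources used here, which leaves genes with overlapping neighbours or close paralogs uncertain.

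The test was limma 3.58.1 (R 4.3.3) with a trend on log2(value + 1), as designed for normalized values. All 10 libraries were fitted in 4 groups sharing the spread. filterByExpr (edgeR 4.0.16, minimum count 10) kept 15717 of 24293 genes with a read. Adjustment was by Benjamini-Hochberg over these, with calls at adjusted p under 0.05 and absolute log2 fold change of at least 0.5. Tests were two-sided. The script was tested on simulated data.

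Groups came from the labels. By the study's methods, a control culture and its treated partner were on the same plate. The labels do not state the pairs, which were taken by number for TSA and by consecutive library names for NaB. Deviations from the group means correlated within pairs (r from 0.34 to 0.43). In the NaB groups, both pairs have the same r by construction. Mismatched pairs were not compared, so these values do not settle the pairing. Alternatives were the plate pair as a replicate block, DESeq2 1.42.0 and edgeR on recovered reads, TMM factors, library totals, pseudocounts of 0.5 and 5, other filters and fold minimums, the libraries of a comparison alone, pooled controls and each library left out.

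The genes and lists were chosen with earlier results of these data known. By rule, the genes named were every paired member, the gene of the highest count (not corrected for length) of each marker list and the gene most correlated with the member. The other paired markers (Prph, Calca, P2rx3 and Ckm) and the next 4 correlated genes were added after their values were seen. Some genes of the planned lists are not reported here. Fold changes and p-values in the study's lists were not used. The rows of the study's lists that could be read here hold only part of the upregulated genes, and the RefSeq table of GRCr8 was used for promoters only. Depth was 26070908 to 27649249 reads per library. Counting intervals are exact Poisson intervals, which leave out the spread between cultures.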

Additional observations from a re-analysis of the deposited data

Results flagged for a closer look

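In normalized counts, Scn4b was higher in the treated culture of every inferred plate pair of the TSA experiment. It was higher in neither inferred pair of the NaB experiment, in which its change did not pass the test. Its change with NaB minus its change with TSA was -1.79 on the log2 scale. The log2 ratios of the plate pairs were 1.33 to 1.90 with TSA and -0.23 and -0.0295 with NaB, and in CPM the NaB-treated libraries did not lie apart from their controls. The difference was not tested in libraries independent of the naming of the gene, which came from its rise with TSA. It stayed between -1.90 and -1.69 on leaving out each library and turned to 0.38 with all 5 controls as 1 group. The control means were 175.7 for NaB and 38.44 for TSA. Drug, hours and project changed together, and their parts cannot be told apart.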

How the results depend on the processing

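Pooling all 5 control libraries as 1 group changed the results of Scn4b most. Its log2 change with TSA was then 0.79 (interval -0.39 to 1.98), and that with NaB was 1.17 (adjusted p = 0.123, limma). Their difference was 0.38 (interval -1.10 to 1.86). The change with NaB and the difference thus turned sign, and none of these changes was called. These follow from the gap between the control groups, which this setting averages. The control difference was 2.17 also with only its own libraries in the fit. The change with TSA, the control difference and the difference between drugs are not read as tests, since the TSA experiment named the gene. By threshold alone, the control difference was no longer called in its own libraries, and the difference between drugs was called in 4 of the 10 fits without a library. Leaving out each library in turn gave 1.56 to 1.77 with TSA, -0.19 to -0.078 with NaB, -1.90 to -1.69 for the difference between drugs and 2.07 to 2.28 for the controls. With the plate pair as a replicate block, the change with NaB was -0.13 (adjusted p = 0.598, limma) and the difference -1.79. The change with NaB was again not called. The block was not run for the control difference, in which each pair has 1 library.

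Apart from these cases, Scn4b kept its direction under the alternatives run, and its change with NaB stayed uncalled. For the other contrasts nothing is read from this, since the refits reuse the libraries that named the gene. The counts of called genes moved more. A fold minimum of 1 left 3416 genes with TSA, 3450 with NaB and 105 between the controls. For the difference between drugs, 47 genes became 31 without a filter, 252 with DESeq2, 71 with library totals, 404 with the replicate block, 422 with pooled controls and 1 to 45 without a library. For the control difference, 243 became 104 without a filter, 583 with DESeq2, 6 with its libraries alone and 23 to 461 without a library. The causes were not tested. Library totals shifted the median change of all genes to 0.20 with TSA and 0.13 with NaB, and higher calls to 68.34% of calls with TSA (main 53.28%).

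Limits were the 31 to 176 reads of Scn4b per library, the groups of 2 libraries for NaB, and names that came only from upregulated genes.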

Other observations

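The profile of Scn4b was also counted over all genes, a count defined after its values were seen. Of 3540 genes called higher with TSA, 860 (24.29%) had no call with NaB. In 22 of the 3540 (0.6215%), both control libraries for NaB also lay above every TSA-treated library, as for Scn4b. The share of all tested genes with that order of libraries was not counted. Since the criteria were copied from the values of Scn4b, nothing is read from these counts about how rare its profile is.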
